A study of Mus musculus with 3 samples.

Results

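Mast cells release their granules when vesicle and target-membrane SNARE proteins zip together, under the control of Munc18 and Munc13 proteins and of the small GTPases of the Rab27 family. The 10 genes described here encode that machinery: the vesicle SNAREs Vamp2, Vamp3 and Vamp8, the target-membrane SNAREs Snap23, Stx3 and Stx4a, the SM protein gene Stxbp2 (Munc18-2), the priming factor gene Unc13d (Munc13-4), and Rab27a and Rab27b. They were chosen by name, that is, as every non-control probe whose gene name on the array was one of the 10, with Stx4 accepted for Stx4a. This gave 23 probes of 41174, and all 23 had a value on every array. Each gene is represented below by its brightest probe, meaning the one with the highest mean log2 intensity over the 6 cultures, and its other probes are given beside it.

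Gene expression was measured in mast cell progenitors (MCps) from 3 WT mice and 3 p85α-/- mice, which lack the p85α regulatory subunit of class IA PI3K encoded by Pik3r1. Low-density mononuclear marrow cells of both genotypes were grown in IL-3 (10 ng/mL) for 7 days. Cells positive for both KIT and the IgE receptor were then sorted and given SCF (100 ng/mL), the KIT ligand, for 48 hours, so there was no group without SCF. The sorted cells were few, and their cDNA was amplified by a global PCR before labeling. Each of 3 Agilent arrays carried 1 WT culture in Cy3 and 1 p85α-/- culture in Cy5. The dyes were never swapped, so dye and genotype cannot be told apart. Age and strain background are not given in the labels used here, and each culture is that of 1 mouse.

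In a resting mast cell, granules carry VAMP proteins on their membrane and meet SNAP-23 and syntaxins on the plasma membrane. Munc18-2 binds syntaxins and Munc13-4, a RAB27 partner, tethers and primes the granule before calcium triggers fusion. Loss of STXBP2, UNC13D or RAB27A is known in patients as a cause of defective granule release by cytotoxic lymphocytes.

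The share of spots well above background was 69.4% to 85.3% in the WT channels and 77.3% to 93.8% in the p85α-/- channels, and no spot was saturated. Of 11 mast cell markers found on the array, 10 were above background in all 6 cultures, and their mean log2 intensity was 10.16 to 10.79 in WT and 11.30 to 11.70 in p85α-/- cultures. Over 8 neutrophil markers the mean was 8.64 to 9.40 in WT, and 11.06, 8.08 and 11.48 in p85α-/- cultures 1, 2 and 3. For 5 basophil and eosinophil markers it was 8.67 to 8.93 in WT and 9.30 to 9.40 in p85α-/- cultures. The mean levels of the 6 macrophage markers, and of the 5 erythroid and megakaryocyte markers, overlapped between genotypes. Of the 6 macrophage markers, 2 had a mean log2 ratio (p85α-/- to WT) above 0 and 4 below. Taken singly, 1 of these 6 (Adgre1, lower in p85α-/-) and 3 of the 11 mast cell markers (all higher) had no overlap between genotypes. That was the case for 10.9% of all gene names. In bulk RNA, fewer cells of a type and less RNA per cell cannot be told apart, and the part of these marker differences in the results below was not tested. The 4 probes named for Pik3r1 had mean log2 ratios of -0.58, -0.04, 0.32 and 0.59. The probe at -0.58 was lower in p85α-/- on all 3 arrays (-1.04, -0.31 and -0.38), without overlap between genotypes. That at 0.32 was higher on all 3, with overlap, and neither passed (limma adjusted p = 0.908 for each). The 4 probes thus did not by themselves identify the deleted cultures, and the genotypes are those of the labels.

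With all 3 arrays and quantile normalization, none of the 10 genes passed a test for a difference between WT and p85α-/- MCps. The comparison asks whether the mRNA of the release machinery stood at another level in the p85α-/- cultures, where dye and genotype cannot be told apart. At an adjusted p under 0.05 (limma, Benjamini-Hochberg over 41157 probes), 0 of the 10 genes and 0 of the 23 probes passed, against 0% of all probes tested, and the lowest adjusted p among them was 0.908. The lowest unadjusted p among the 23 probes was 0.0998, for Rab27b, so 0 were under 0.05 before adjustment. Both thresholds that the study's methods name, a change of 1.5-fold with p under 0.05 before adjustment, were applied to limma's p, and 0 of the 10 genes and 0 of the 23 probes passed them as well, against 4.44% of all probes and 5.21% of the brightest probes of all 27951 gene names. On the log2 scale the mean p85α-/- to WT ratio exceeded 0 for 6 genes and was below 0 for 4, with a median of 0.20 and a range from -1.87 (Rab27b) to 1.85 (Stx4a). For no gene did the WT and p85α-/- values separate without overlap, which was the case for 10.9% of all gene names. No gene was higher in p85α-/- on all 3 arrays (11.8% of all gene names) and 1, Vamp2, was lower on all 3 (14.2%). With each array centred on its median instead, 1 gene (Stx4a) passed both thresholds, where 6.54% of all probes did. With 1 array left out, 1 to 2 genes passed them, where 3.78% to 7.69% of all probes did.

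Instead most of the genes varied widely from culture to culture within a genotype. The median SD of log2 intensity over the 10 genes was 1.45 in WT and 1.38 in p85α-/- cultures. Over the gene names above background in all 6 cultures it was 0.49 and 0.52. Vamp2 varied less, with an SD of 0.56 in WT and 0.34 in p85α-/- cultures. In all 10 genes, and in all 23 probes, the SD of the log2 ratio between arrays was larger than the absolute mean, as it was in 79% of all gene names. Its median over the 10 genes was 2.34. Among the 8 genes that were above background in all 6 cultures it was 2.72. Each of these 8 lay above 0.84, the median of the 19241 gene names above background in all 6 cultures. Those gene names were not matched to the 8 for brightness. Over the marker lists the median SD of the log2 ratio ran from 0.87 (erythroid and megakaryocyte) to 1.66 (mast cell). The arrays did not share a direction, since 5 of the 10 genes were higher in p85α-/- on array 1, 6 on array 2 and 3 on array 3, with medians of 0.06, 0.66 and -0.28, while the medians of all probes lay between -0.014 and -0.0056. With 3 cultures per genotype, the intervals given below bound each difference only loosely.

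**Figure D1:**
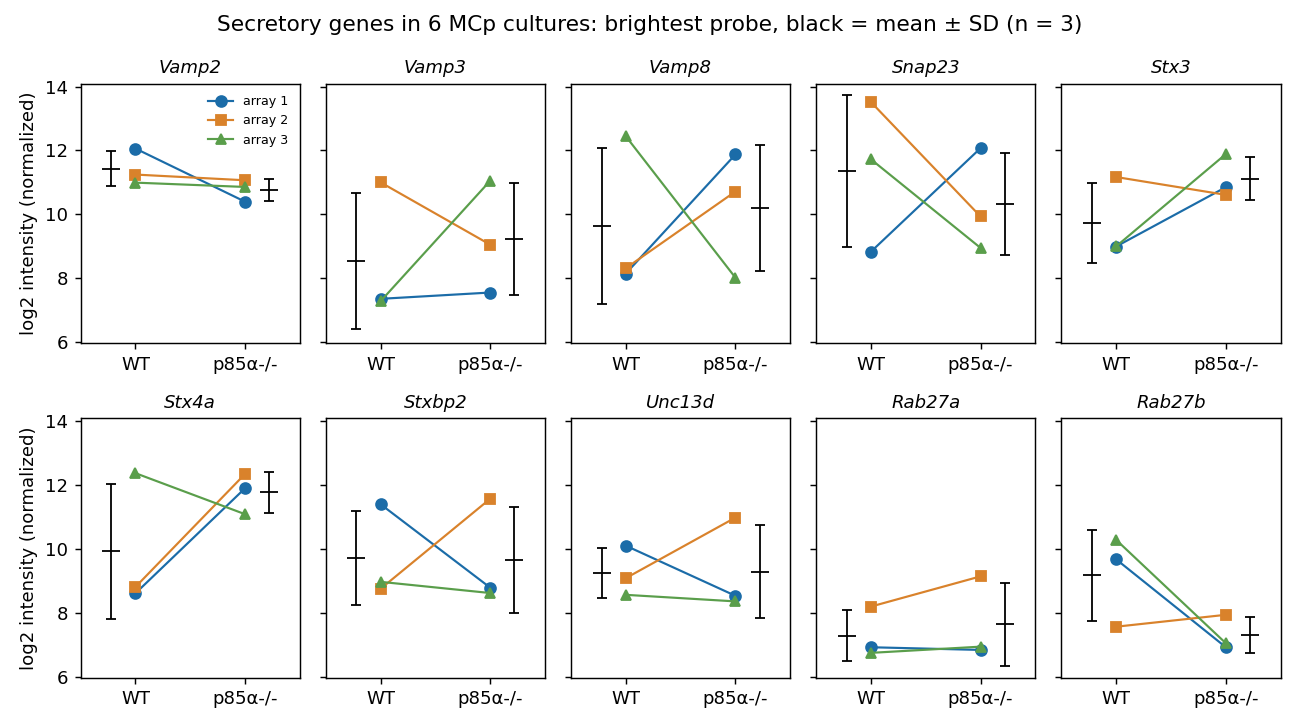
Normalized log2 intensity of the brightest probe of each of the 10 genes in WT and p85α-/- MCps. Lines join the cultures hybridized to 1 array, and black marks give the mean ± SD over 3 cultures. Lines of opposite slope are seen in every gene but Vamp2, whose 3 lines all slope down.

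The vesicle SNAREs came first. Vamp2, which encodes the VAMP also known for synaptic vesicle release, had a log2 intensity of 12.06, 11.25 and 10.99 in WT cultures 1, 2 and 3 and 10.40, 11.07 and 10.86 in p85α-/- cultures 1, 2 and 3. The genotypes overlapped, and WT culture 1 was the highest and p85α-/- culture 1 the lowest of the 6. Its log2 ratio was -0.66 ± 0.87 (SD, n = 3, 95% interval -1.90 to 0.58, limma adjusted p = 0.908), and most of it came from array 1 (-1.66 against -0.18 and -0.14, mean -0.16 without array 1). With each array centred on its median in place of quantile normalization the ratio was 0.32, so its sign depended on the scaling. The probe is annotated at 69171564 to 69172245 of chromosome 11 by the array's design, which names no genome build. A second Vamp2 probe, which starts 10 bases away, followed it closely, with ratios of -1.52, -0.20 and -0.11. The remaining Vamp2 probe, 2035 bases from the first, had ratios of -3.64, 1.30 and -0.75, so it was not lower on every array.

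Vamp3, the gene of cellubrevin, an endosomal VAMP, had a log2 intensity of 7.36, 11.00 and 7.28 in WT and 7.55, 9.05 and 11.06 in p85α-/- cultures. One culture of each genotype stood near 11 while 3 of the 6 stood below 8. Its log2 ratio was 0.67 ± 2.89 (SD, n = 3, 95% interval -2.88 to 4.23, limma adjusted p = 0.949). Its other probe, 703 bases away, was also high in WT culture 2 (11.38) but stood at 6.66 in p85α-/- culture 3, where the first probe was at its highest. The mean ratio of that other probe was -1.42 ± 2.09 (SD, n = 3), of the opposite sign. It was not well above background in either culture of array 1 or in p85α-/- culture 3, so its ratios on arrays 1 and 3 rest on dim values. The sign of the Vamp3 ratio also turned without array 3 (-0.88) and with both probes averaged (-0.37).

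Vamp8 encodes endobrevin, a VAMP used for the regulated release of mast cell mediators. It had a log2 intensity of 8.15, 8.31 and 12.45 in WT and 11.88, 10.72 and 8.02 in p85α-/- cultures. WT culture 3 was highest and p85α-/- culture 3, on the same array, lowest, a range of 21.6-fold over the 6 cultures. Its log2 ratio was 0.57 ± 4.38 (SD, n = 3, 95% interval -4.76 to 5.90, limma adjusted p = 0.974), the widest spread of the 10 genes. Without array 3 the ratio was 3.07 (limma unadjusted p = 0.0113), past both thresholds, whereas without array 1 it was -1.01 and without array 2 it was -0.35, so the sign depended on which arrays were kept. The second Vamp8 probe, 2777 bases from the first, was lower in p85α-/- on all 3 arrays (-2.94, -0.40 and -0.59, mean -1.31 ± 1.41, SD, n = 3, limma adjusted p = 0.908), as were 13.3% of all probes.

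Among the target-membrane SNAREs, Snap23 encodes the SNAP-25 homologue of non-neuronal cells, the partner of syntaxins in mast cell granule fusion. Its log2 intensity was 8.83, 13.52 and 11.73 in WT and 12.07, 9.93 and 8.95 in p85α-/- cultures. The highest and the lowest of the 6 were both WT cultures, 25.8-fold apart. The log2 ratio was -1.04 ± 3.73 (SD, n = 3, 95% interval -5.60 to 3.52, limma adjusted p = 0.934). Without array 1 it was -3.18 (unadjusted p = 0.00578), past both thresholds, without array 2 it was 0.23, and without array 3 it was -0.17. A second Snap23 probe, which starts 391 bases away on chromosome 2, gave the same order of arrays, with ratios of 4.00, -3.39 and -1.08. The last, 14692 bases from the brightest, did not, with ratios of -0.24, -0.02 and 1.99, and its log2 intensity lay between 8.04 and 8.61 in all WT cultures.

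Stx3 encodes a syntaxin of granule and apical membranes. Its brightest probe is assigned to transcript variant A and had a log2 intensity of 8.99, 11.17 and 8.99 in WT and 10.85, 10.61 and 11.88 in p85α-/- cultures. All 3 p85α-/- cultures exceeded WT cultures 1 and 3, but WT culture 2 lay within their range. Its log2 ratio was 1.40 ± 1.77 (SD, n = 3, 95% interval -0.84 to 3.63, limma adjusted p = 0.908), and without array 2 it was 2.37 (unadjusted p = 0.0185), past both thresholds. Without array 3 it was 0.65, and the average of all its probes was 0.22. The 2 probes assigned to variant C had mean ratios of -0.06 ± 0.56 and -0.19 ± 0.48 (SD, n = 3). The variant B probe had 0.10 ± 0.32 (SD, n = 3) and was above background in 1 culture of each genotype. Another probe carries the gene's name but is annotated on the opposite strand, and its mean ratio was -0.14 ± 0.54 (SD, n = 3). It was above background in 1 WT culture and 2 p85α-/- cultures.

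Stx4a, the gene of the plasma membrane syntaxin 4, had a log2 intensity of 8.62, 8.82 and 12.38 in WT and 11.91, 12.36 and 11.09 in p85α-/- cultures. All p85α-/- cultures were above WT cultures 1 and 2, while WT culture 3 was the highest of the 6. The log2 ratio was 1.85 ± 2.72 (SD, n = 3, 95% interval -1.50 to 5.20, limma adjusted p = 0.908), the highest mean of the 10 genes. Without array 3 it was 3.42 (unadjusted p = 0.00282), past both thresholds, and it was 1.13 without array 1 and 1.003 without array 2. With median centring and all 3 arrays it was 2.86 (limma unadjusted p = 0.0322), past both thresholds too. The other Stx4a probe, 5024 bases away, had ratios of -0.14, 3.22 and 0.33, so both probes were well above 0 on array 2 and had opposite signs on arrays 1 and 3.

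Stxbp2 had 1 probe and encodes Munc18-2, an SM protein that binds syntaxins. Its log2 intensity was 11.40, 8.76 and 8.98 in WT and 8.79, 11.58 and 8.63 in p85α-/- cultures. A single culture of each genotype stood high, and the other 4 lay between 8.63 and 8.98. The log2 ratio was -0.05 ± 2.73 (SD, n = 3, 95% interval -3.41 to 3.31, limma adjusted p = 0.998), and it lay between -1.48 (without array 2) and 1.23 (without array 1).

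Unc13d, also with 1 probe, encodes the Munc13-4 priming factor. Its log2 intensity was 10.11, 9.09 and 8.57 in WT and 8.54, 10.99 and 8.36 in p85α-/- cultures. The same cultures stood high as for Stxbp2, namely WT culture 1 and p85α-/- culture 2. Its log2 ratio was 0.04 ± 1.75 (SD, n = 3, 95% interval -2.17 to 2.25, limma adjusted p = 0.997), and it was -0.89 without array 2.

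The Rab27 GTPases recruit effectors that carry granules to the plasma membrane. Rab27a was dim, with a log2 intensity of 6.93, 8.20 and 6.75 in WT and 6.84, 9.15 and 6.95 in p85α-/- cultures, and WT culture 1 was not well above background. Both cultures of array 2 were higher than the other 4. The log2 ratio was 0.35 ± 0.53 (SD, n = 3, 95% interval -0.56 to 1.27, limma adjusted p = 0.908), the smallest spread of the 10 genes. Its other probe gave -0.41 ± 0.99 (SD, n = 3), and the average of both was -0.027. At that other probe 1 of the 2 cultures on each array was not well above background, so its ratios rest on dim values. The ratio of the brightest probe was 0.57 without array 1 and 0.055 without array 2.

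Rab27b had a log2 intensity of 9.68, 7.57 and 10.29 in WT and 6.93, 7.94 and 7.06 in p85α-/- cultures. While 2 of the 3 p85α-/- cultures were well above background, culture 1 was not, so the ratio on array 1 (-2.75) rests on a dim value. Culture 3 of p85α-/- was nearly as low (7.06 against 6.93), so the ratio on array 3 (-3.24) rests on a low value too. WT cultures 1 and 3 stood above every p85α-/- culture and WT culture 2 stood within their range. The log2 ratio was -1.87 ± 1.96 (SD, n = 3, 95% interval -4.33 to 0.58, limma adjusted p = 0.908), the lowest mean of the 10 genes. Without array 2 it was -2.99 (unadjusted p = 0.00483), past both thresholds, and it was -1.43 without array 1, -1.19 without array 3 and -0.98 with both probes averaged. The other Rab27b probe, assigned to another transcript, had a mean ratio of -0.08 ± 0.59 (SD, n = 3). On each array, 1 of its 2 cultures was not well above background.

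**Figure D2:**
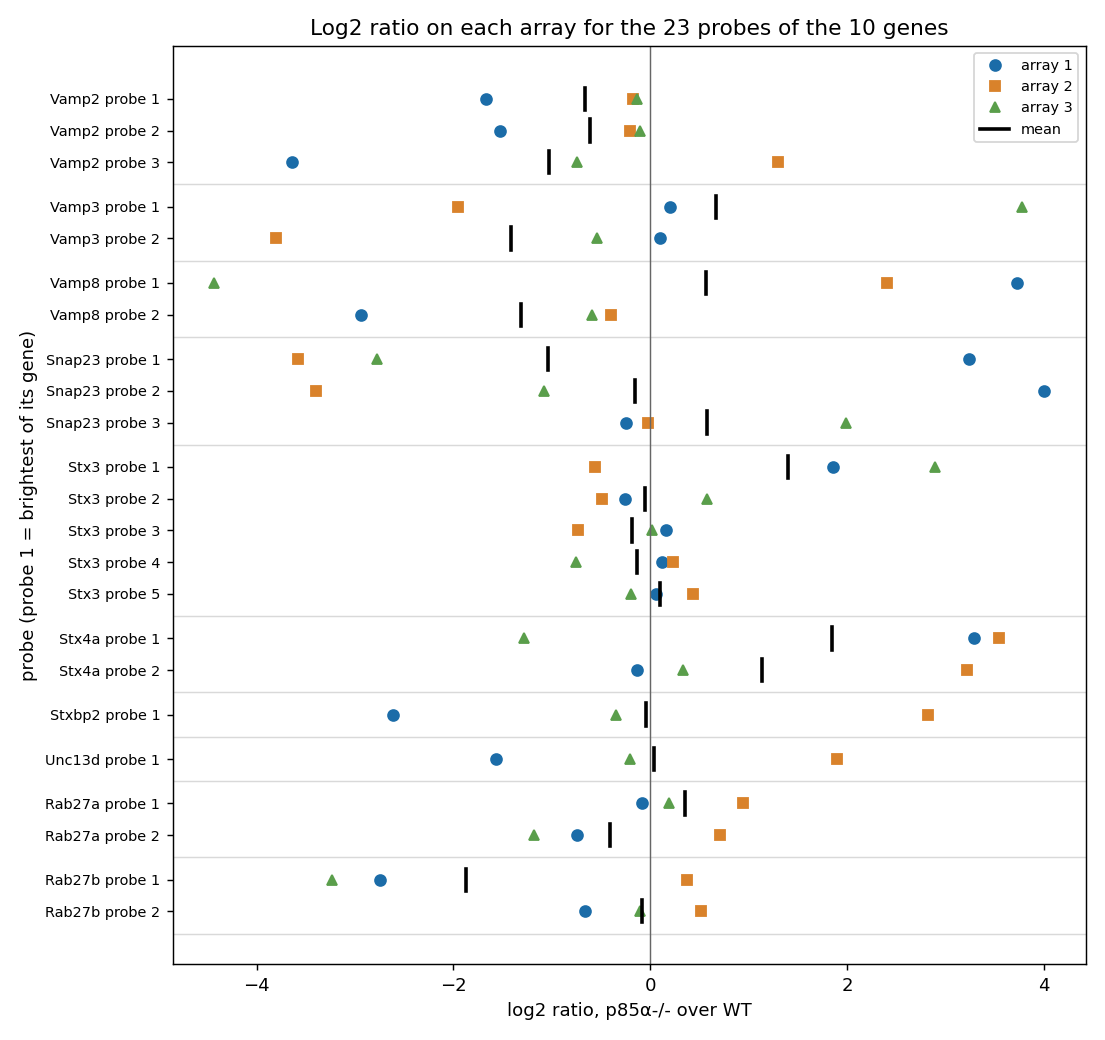
Log2 ratios (p85α-/- to WT) on the 3 arrays for all 23 probes, grouped by gene with the brightest probe first. Symbols are arrays and black bars are means. Every mean lies closer to 0 than 1 SD of its 3 points, and probes of one gene often differ, as the pair of Vamp8 probes does by 6.67 on one array.

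Probes of one gene often went apart. In the 8 genes with more than 1 probe there were 21 pairs of probes, and 5 pairs had the same sign on all 3 arrays. Only 16 of the 23 probes were above background in all 6 cultures, so some of these pairs compare values near background. The mean ratios had the same sign in 10 of the 21. Over the 6 cultures the median Pearson r between probes of a gene was 0.24, with a median absolute difference of 1.42 between their log2 ratios. The 2 Vamp2 probes that start 10 bases apart were the closest pair, with r = 0.998 and an absolute difference of 0.07, and the 2 Snap23 probes 391 bases apart had r = 0.94. The brightest and the last Snap23 probe had r = -0.43, and the Vamp8 probes had r = -0.44. These correlations are a description over 6 cultures that share arrays. Stx3, with 5 probes, gave more of the 21 pairs than any other gene. Its probes include different transcripts and 1 annotated on the opposite strand, so the counts and medians over all pairs lean on that gene.

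Some genes were high and low in the same cultures. Of 45 pairs of genes at their brightest probes, 20 had a Pearson r above 0 over the 6 cultures, and the median was -0.09. Stxbp2 and Unc13d were the most alike (r = 0.95), followed by Stx3 and Vamp3 (r = 0.82) and by Stx4a and Vamp8 (r = 0.80). Rab27a was most like Unc13d (r = 0.72), Vamp2 most like Stxbp2 (r = 0.63), Rab27b most like Vamp2 (r = 0.59) and Snap23 most like Vamp8 (r = 0.36). Stx3 and Rab27b were the most opposed (r = -0.94). The 6 cultures share 3 arrays, and with so many pairs over 6 points these values are given as a description only.

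**Figure D3:**
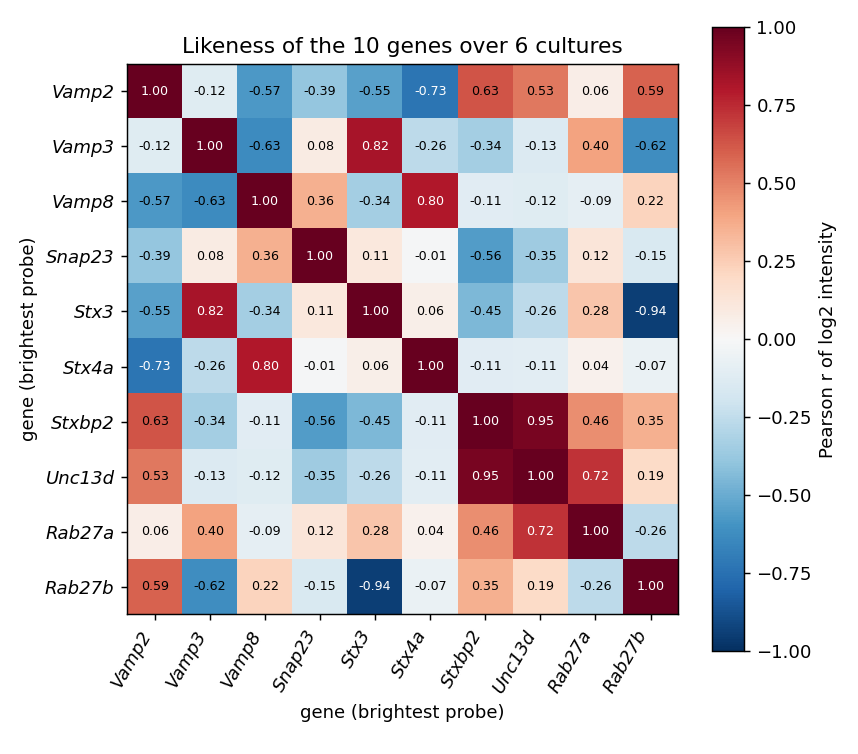
Pearson r of log2 intensity over the 6 cultures for each pair of the 10 genes at their brightest probes. Red is positive and blue negative, and Stxbp2 with Unc13d (0.95) is the deepest red and Stx3 with Rab27b (-0.94) the deepest blue away from the diagonal.

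Promoters were looked up for the genes that varied together. The RefSeq promoter table (GRCm38.p6) held 7 promoters for 6 of the 10 genes, Rab27a with 2, and it held no entry for Vamp2, Vamp3, Unc13d or Rab27b. Shown are the 250 bases before the start of Stxbp2, the closest partner of Unc13d, and of Stx4a and Vamp8, an alike pair with both entries in the table. They were chosen after the values were seen. Capitals mark matches, on either strand, to the E-boxes CACGTG and CATGTG that basic helix-loop-helix factors such as MITF bind, to the GATA-factor motifs AGATAA or TGATAA and AGATAG or TGATAG, and to the GC box GGGCGG. The Stxbp2 promoter lies at chr8:3630859-3631108 on the plus strand, that of Stx4a at chr7:127841558-127841807 on the plus strand and that of Vamp8 at chr6:72390668-72390917 on the minus strand.
Stxbp2: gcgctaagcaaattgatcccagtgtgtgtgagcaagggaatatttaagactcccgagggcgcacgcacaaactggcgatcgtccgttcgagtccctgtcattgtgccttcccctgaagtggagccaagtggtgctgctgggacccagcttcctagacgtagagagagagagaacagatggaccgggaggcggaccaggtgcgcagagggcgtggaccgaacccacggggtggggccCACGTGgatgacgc
Stx4a: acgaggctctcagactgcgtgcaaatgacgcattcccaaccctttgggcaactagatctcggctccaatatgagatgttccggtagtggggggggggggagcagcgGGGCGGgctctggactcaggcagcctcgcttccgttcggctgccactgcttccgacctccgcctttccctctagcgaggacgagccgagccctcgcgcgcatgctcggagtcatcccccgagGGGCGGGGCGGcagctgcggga
Vamp8: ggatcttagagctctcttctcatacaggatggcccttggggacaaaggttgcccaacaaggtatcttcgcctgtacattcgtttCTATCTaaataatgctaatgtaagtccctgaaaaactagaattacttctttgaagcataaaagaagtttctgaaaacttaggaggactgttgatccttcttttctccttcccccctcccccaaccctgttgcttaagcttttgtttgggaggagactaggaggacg

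Stxbp2 holds 1 CACGTG, a motif found in 6.02% of the 32851 promoters of the table over the same length. Stx4a holds 3 GC boxes, 2 of which overlap, where 32.7% of all promoters hold at least 1. Vamp8 holds 1 AGATAG, read on the opposite strand, and AGATAG or TGATAG occurs in 13.3% of all promoters. Of the 7 promoters, 2 held CACGTG, 2 held AGATAG or TGATAG and 2 held a GC box. No promoter of the 7 held CATGTG (12.3% of all promoters) or AGATAA or TGATAA (16.6%). The GC content was 60.4% for Stxbp2, 66.4% for Stx4a and 43.6% for Vamp8, against a median of 52.4%. Stx4a and Vamp8, though alike over the cultures, thus shared none of the motifs searched in these windows. A match of letters is a description and not a binding site.

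The wider exocytosis machinery was then examined through 97 further genes, listed by role, of which 95 were found and tested. Their mean log2 ratio was above 0 for 47 and below 0 for 48, with a median of -0.02, where the median of all gene names was -0.07. At an adjusted p under 0.05, 0 passed, and the lowest adjusted p was 0.763. By both thresholds, with limma's unadjusted p, 12 passed, 11 higher and 1 lower in p85α-/- MCps, where 5.21% of all gene names passed, 3.14% higher and 2.08% lower. With the methods' t-test, unpaired and paired, 9 and 6 passed, where 2.73% and 1.99% of all probes did. The groups did not overlap in 15 of the 95, against 10.9% of all gene names. Of the 12, 8 have further probes on the array, 17 in all, and none of these 17 passed (8 had a mean ratio above 0 and 9 below). None of the 12 is an effector of Rab27 or an NSF or SNAP disassembly factor.

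The R-SNARE genes Sec22b and Ykt6 were among them. Sec22b, which encodes a SNARE of transport between the endoplasmic reticulum and the Golgi, had a log2 intensity of 7.85, 7.80 and 8.04 in WT and 9.31, 10.49 and 13.09 in p85α-/- cultures. Its genotypes did not overlap, and its log2 ratio was 3.07 ± 1.82 (SD, n = 3, limma unadjusted p = 0.0215). Ykt6, a lipid-anchored R-SNARE gene, had ratios of 0.86, 0.74 and 0.80, a mean of 0.80 ± 0.06 (SD, n = 3, limma unadjusted p = 0.0282), the closest agreement between arrays of the 12.

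Target-membrane SNAREs were represented by Stx8 and Vti1b, whose products pair in late endosomal fusion. Stx8 had ratios of 3.25, 1.70 and 0.72 and its genotypes did not overlap. Vti1b had ratios of 0.57, 0.89 and 0.94, and its genotypes did overlap. The other 17 genes of this group did not pass, and the group's median was 0.21.

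Of 13 SM and Munc13 genes, Vps45 and Vps33b passed, both SM protein genes of endosomal and lysosomal traffic. Vps45 had a log2 intensity of 7.68, 7.63 and 7.58 in WT and 12.54, 9.01 and 12.15 in p85α-/- cultures, a ratio of 3.60 ± 1.93 (SD, n = 3, limma unadjusted p = 0.0153). Vps33b had ratios of 2.48, 1.86 and 1.49. Neither gene's genotypes overlapped, whereas those of Stxbp2 and Unc13d did.

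Among Rabs and their regulators, Madd, which encodes an exchange factor for RAB3 and RAB27 proteins, had ratios of 3.61, 1.94 and 3.06, a mean of 2.87 ± 0.85 (SD, n = 3, limma unadjusted p = 0.00323, adjusted p = 0.763). Its WT culture values were 8.05, 7.04 and 9.46 and overlapped with the p85α-/- values of 11.66, 8.99 and 12.52, and 2 of the 3 WT cultures were above background. Rab11b, a recycling endosome GTPase gene, had ratios of 3.61, 1.29 and 2.46. The 10 Rab27 effector genes had a median of -0.22, with 3 above and 7 below 0, and none passed.

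The exocyst tethers vesicles at the plasma membrane, and its subunit genes Exoc5 and Exoc6 passed. Exoc5 had ratios of 2.51, 2.05 and 1.70 (limma unadjusted p = 0.00243, adjusted p = 0.763), with 2 of 3 WT cultures above background, and Exoc6 had 1.77, 1.14 and 3.70. Of the calcium sensors and complexins, Syt11, an atypical synaptotagmin gene, had ratios of 1.16, 1.02 and 1.22 at its brightest probe, with genotypes that overlapped, and mean ratios of -0.36, -0.02, 0.12 and 0.39 at its other probes. Cplx1, whose product clamps and promotes SNARE fusion in neurons, was the only one of the 12 lower in p85α-/- MCps. It had a log2 intensity of 13.67, 12.50 and 12.47 in WT and 8.90, 11.82 and 9.39 in p85α-/- cultures, a ratio of -2.84 ± 2.06 (SD, n = 3, limma unadjusted p = 0.0376). The count of 12 was 5 without array 1, where 3.78% of all probes passed. Of 11 mast cell markers, 10 had a mean ratio above 0 and 3 passed both thresholds, with a median of 1.47. Of 8 neutrophil markers, 5 had a mean ratio above 0 and 2 passed, with a median of 1.51. Among all gene names, 43% had a mean ratio above 0 and 5.21% passed. The part of either marker list in these results was not tested.

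**Figure D4:**
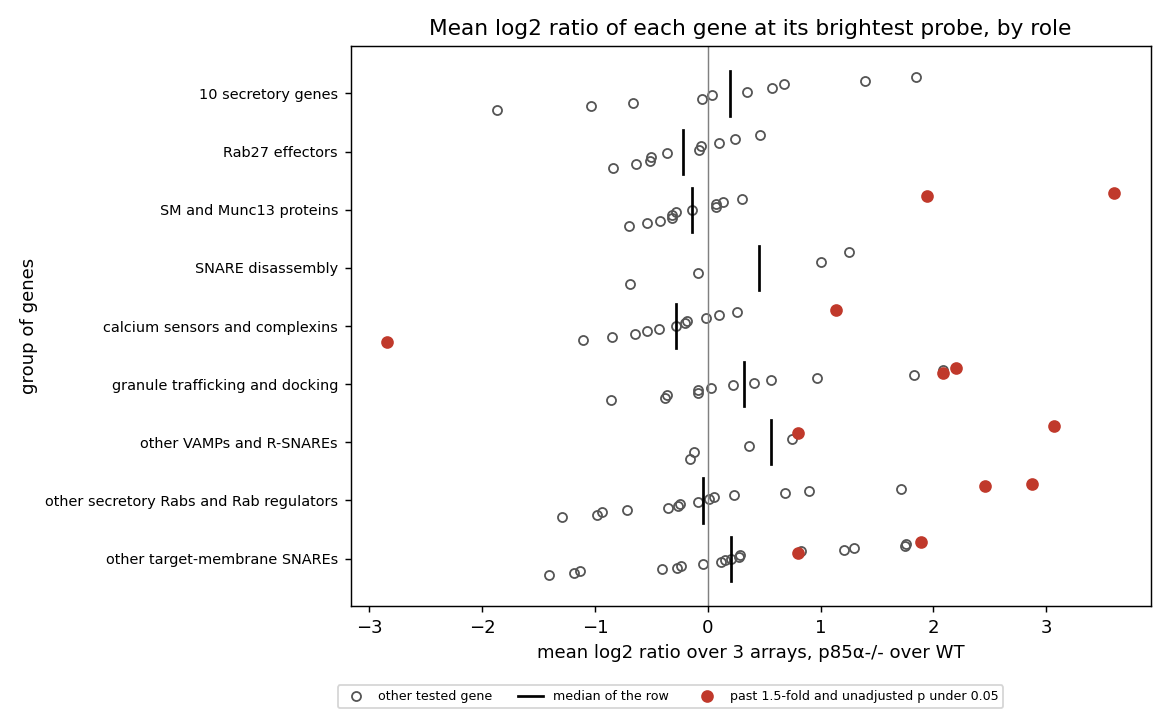
Mean log2 p85α-/- to WT ratio for the 10 genes and for the 95 related exocytosis genes by role, each at its brightest probe. Filled points are the 12 genes past 1.5-fold and an unadjusted p under 0.05, none of them in the top row, and black bars are medians.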

How the data were processed

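Mouse MCp cDNA was hybridized to 3 two-colour arrays, with 3 cultures per genotype, all on 1 slide and scanned on the same day. The authors deposited scanner files made with Agilent Feature Extraction (9.5.1.1), and these deposited intensity values are spot means and local background medians without normalization. The deposited log10 ratio (red to green) came from the software, and the authors' processed table holds 1 log10 ratio per probe, of which 40929 of 40929 equal the scanner's for replicate 1, but only 190 and 226 for replicates 2 and 3 (tolerance 1.5e-05). That table was not used further.

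Background was corrected with normexp (offset 50), the 6 channels were quantile normalized together on the log2 scale (the methods name quantile normalization across chips, without the scale or the channels), control and outlier spots were left out, and spots of a probe were averaged. The log2 ratio on each array was tested with limma 3.58.1 in R 4.3.3 (intercept only, eBayes, Benjamini-Hochberg over 41157 probes with a value on all arrays). Cultures of 1 array deviated together little (r = 0.06, -0.06 and -0.02). The procedure was tested on simulated data as a check of the code, and no power at the spread of these genes is claimed from it. The members and lists were chosen with earlier results of these data known. Named were all members, Pik3r1 and every related gene past 1.5-fold and an unadjusted p under 0.05. Of the markers, Adgre1 alone was named. The others without overlap, and those past both thresholds, were counted without their names. Stx2 and Stx19 of the related genes, and Tpsb2 and Pf4 of the markers, were not matched by name. The number of arrays limits the precision. Alternatives are given in the closing section.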

Additional observations from a re-analysis of the deposited data

How the results depend on the processing

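In all 14 alternatives were run, and the authors' table was not run because its rows match the scanner's probes for replicate 1 only. At an adjusted p under 0.05 (limma, or the methods' t-test) none of the 10 genes passed under any of them, and the lowest adjusted p of a member lay between 0.592 and 1. Without the pairing by array (no replicate block) 0 of the 10 genes, 0 of the 23 probes and 12 of the 95 related genes passed 1.5-fold and an unadjusted p under 0.05, as with it, and the methods' t-test gave 9 related genes unpaired and 6 paired (2.73% and 1.99% of all probes). Over all probes the median was -0.05, and 0.09 after median centring. Under it 1 member gene and 1 member probe (Stx4a, 2.86) and 18 related genes passed, where 6.54% of all probes passed against 4.44% in the main setting, 8 of the 10 genes were above 0, the median of the related genes was 0.45, and the ratios of Stxbp2 (0.51) and Vamp2 (0.32) turned positive. The software's log ratio gave a related median of 0.079 and -0.14 for Unc13d, and its processed signals gave 0.029 for Stxbp2 and 8 related genes past both thresholds. Over all 14 alternatives the count of related genes ran from 5 to 18. With a gene's probes averaged, 3 of the 10 genes were above 0, and Rab27a (-0.027), Vamp3 (-0.37) and Vamp8 (-0.37) turned negative. Of 140 member values under alternatives, 120 kept both sign and side of the thresholds, 6 came to pass and 14 changed sign.

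Leaving out 1 array at a time moved the count of member genes, and of member probes, past both thresholds to between 1 and 2, and that of related genes to between 5 and 16, while 3.78%, 7.69% and 4.25% of all probes passed without arrays 1, 2 and 3. The members' median ranged from -0.15 to 0.71 and the related median from -0.020 to 0.12. The log2 ratio ranged from -1.48 to 1.23 for Stxbp2, -0.89 to 0.85 for Unc13d, -3.18 to 0.23 for Snap23, -0.88 to 1.99 for Vamp3, -1.01 to 3.07 for Vamp8, 0.65 to 2.37 for Stx3, 1.003 to 3.42 for Stx4a, 0.055 to 0.57 for Rab27a, -0.92 to -0.16 for Vamp2 and -2.99 to -1.19 for Rab27b. The cause of these shifts was not tested. Dim probes limit Rab27a and Rab27b, which were not above background in every culture. Of all 23 member probes, 16 were above background in every culture. The ratios of the dim ones, among them further probes of Vamp3 and Stx3, are limited in the same way.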
